A study of Drosophila melanogaster with 23 samples.

Results

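The 10 genes described here act in ecdysteroid production by the larval prothoracic gland, as enzymes, as a sterol transporter or as regulators: spok, sad, phtm, dib, nvd, sro, ouib, GstE14, tor and Npc1a. They were chosen by name as genes known for this role in Drosophila, and each was represented by the probe set assigned to it alone with the highest mean over all arrays. All 10 had a probe set, 1 each, among the 11982 genes with a probe set of their own, and all 10 passed the filter that left 7670 genes for testing. Of the 10, 8 passed only through the Tim groups, the groups in which they were high, so the counts of these genes given below describe them and are no independent support.

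Ecdysteroids are the moulting hormones of insects. The prothoracic gland makes their precursor from dietary sterol, and in fly larvae it lies in the ring gland, next to the brain, together with the corpus allatum, which makes juvenile hormone, and the corpora cardiaca, which release adipokinetic hormone. The gland takes up sterol, moves it out of endosomes, passes it through a chain of oxygenases, reductases and cytochrome P450 enzymes known as the Halloween genes, and is switched on by the brain peptide PTTH. Gland cells also carry a circadian clock and express the clock gene tim, and tim drivers are known to be active there as well as in brain neurons.

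Levels were measured on 23 one-colour arrays of Drosophila melanogaster in 8 groups, with 3 arrays a group and 2 for adult small Pdf cells. Fluorescent cells were sorted by hand from dissected heads near lights-off of a 12 h light and 12 h dark day, and their RNA, between 0.1 and 0.4 ng a sample, was amplified in 2 rounds. The larval groups came from Tim-Gal4;Pdf-Gal80;UAS-YFP larvae, called Tim without Pdf here, in which Gal80 blocks Gal4 in the neurons that make the peptide PDF, from Tim-Gal4;UAS-YFP larvae (cells in which Tim-Gal4 is active, called GFP cells in another label), from Pdf-Gal4;UAS-GFP larvae (PDF neurons), and from Elav-Gal4;UAS-GFP larvae (labelled as neurons in general, called larval Elav cells here). The adult groups were large and small cells of Pdf-Gal4;UAS-GFP flies, whole dissected eyes, whose labels give no genotype, and cells of Elav-Gal4;UAS-GFP flies. The labels give brain as the source of all sorted cells and name no ring gland. They call the samples biological replicates and say no more, so the p-values cover only the variation among these arrays, and the small number of arrays limits the precision.

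Values are deposited log2 values, and a log2 value of 5 served as the limit of detection. Between 43.4% and 50.9% of genes lay above it on each array, and replicate arrays correlated with r between 0.915 and 0.978 across genes. Pdf stood at 3.03, 2.97 and 2.76 on the Tim without Pdf arrays, against 14.54, 14.29 and 14.21 on the larval Tim arrays, and tim was between 9.95 and 11.16 on all 6. The genes that mark the prothoracic gland are 8 of the 10 genes themselves, so no independent marker list of that gland was available. On all 3 Tim without Pdf arrays the corpus allatum markers were above the limit as well, 5 of 5, and the neuronal gene elav stood at 11.63 to 12.02. Of these 5 markers, 3 were above the limit on each larval Pdf and Elav array too, all but jhamt and Cyp6g2. The larval Elav arrays did not match their label by its markers beyond elav itself. Neuron markers were above 5 in 1 to 3 of 6 there, with elav at 12.93, 10.52 and 11.22, while Snap25 averaged 3.56, Rim 3.04, brp 3.92, CadN 4.29 and nSyb 4.40. Neuroblast markers were above 5 in 5 of 5 on each of these arrays, mira averaging 14.41, wor 11.70, dpn 10.75 and ase 9.05, so comparisons with larval Elav cells are not comparisons with mature neurons. The larval Pdf arrays held 6 of 6 neuron markers and 0 to 4 of 5 hemocyte markers. They also held 3 to 5 of 5 neuroblast markers, 3 to 5 of 6 glial markers and 1 to 2 of 3 corpora cardiaca markers. The last count came only from gl (6.03 ± 2.99) and Lst (6.53 ± 3.85), while Akh was undetected (2.00 ± 0.01, SD, n = 3 each). There mira averaged 11.72 and the glial gene Gs2 11.85, so these arrays held markers of cells other than neurons. Values come from RNA of pooled cells, in which fewer cells of a type and less RNA per cell cannot be told apart.

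Across the 8 groups the 10 genes followed one main pattern: high in both larval Tim groups and, except for Npc1a and GstE14, below the limit of detection elsewhere. Every one of the 10 was above 5 on all 3 Tim without Pdf arrays. On larval Tim replicates 1 and 2 all 10 were above 5, and on replicate 3 there were 6. On the 17 arrays of the other groups spok, sad, phtm, dib, nvd, sro, ouib and tor were under 5 without exception. The array-by-array plot shows this pattern, with the last larval Tim array apart from the other two.

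**Figure D1:**
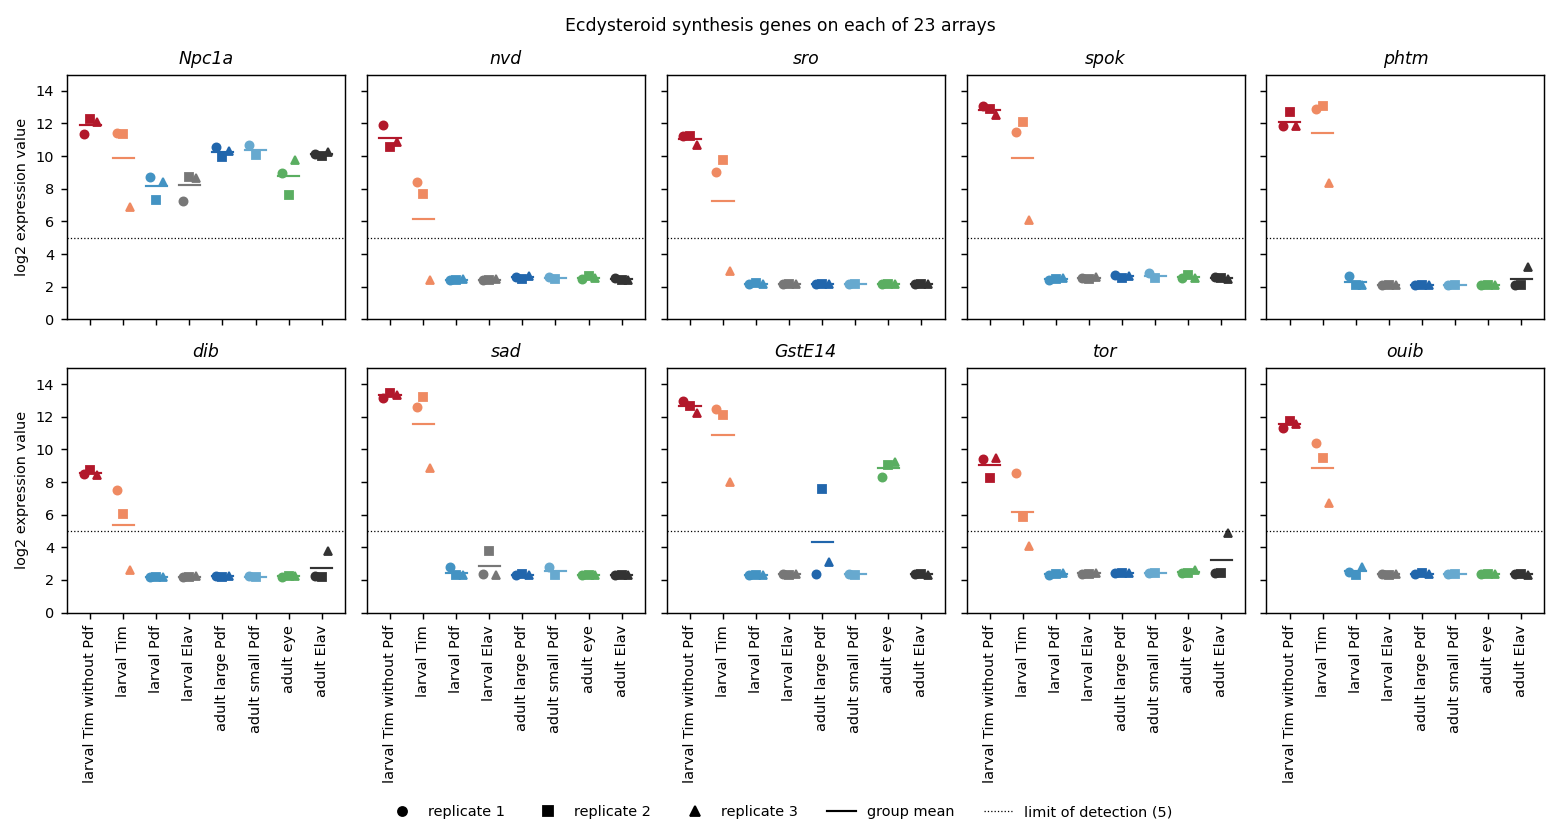
Log2 value (vertical axis) of each of the 10 ecdysteroid synthesis genes (1 panel each) on the 23 arrays by group, with a point per array, a line at the group mean and a dotted line at 5, the limit of detection. The 3 Tim without Pdf arrays are high for all 10 genes, larval Tim replicate 3 is high for 6, and outside the Tim groups only Npc1a and GstE14 rise above the limit.

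The pattern was rare among genes at large. Above 5 on all 3 Tim without Pdf arrays and on no array outside the Tim groups were 19 of 11982 genes (0.159%), and 8 of these 19 belong to the 10. The other 11 were jhamt, the juvenile hormone acid methyltransferase, Cyp6g2, Gagr, Pkg21D, sev, alpha-Est5, CG13101, CG15366, CG15408, CG32259 and CG33521, named after their values were seen. For comparison, 4637 genes (38.7%) were above 5 on all 3 Tim without Pdf arrays whatever their level elsewhere.

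Sterol handling comes first in the pathway. Npc1a encodes a membrane protein that moves cholesterol out of late endosomes and is the one of the 10 with a general role in cells. It stood at 11.33, 12.27 and 12.11 on the Tim without Pdf arrays and at 11.42, 11.35 and 6.86 on the larval Tim arrays. In larval Pdf cells it stood at 8.71, 7.34 and 8.41, and in larval Elav cells at 7.25, 8.73 and 8.64. Npc1a was thus detected in every larval cell group, and the Tim without Pdf arrays lay above all larval Pdf and Elav arrays. Larval Tim replicate 3, at 6.86, lay below all of those Pdf and Elav arrays. It was 12.9-fold higher in Tim without Pdf than in larval Elav cells (log2 difference 3.69 ± 0.86 SE, limma adjusted p = 0.00220). In adults Npc1a stood at 10.57, 9.92 and 10.32 in large Pdf cells, at 10.69 and 10.09 in small Pdf cells, at 8.96, 7.65 and 9.76 in the eye and at 10.12, 10.01 and 10.23 in Elav cells.

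Ordered by group mean, Npc1a was highest in Tim without Pdf cells, at 11.90 ± 0.50 (SD, n = 3). Adult small Pdf (10.39 ± 0.43, n = 2), large Pdf (10.27 ± 0.33, n = 3) and Elav cells (10.12 ± 0.11, n = 3) came next, with overlapping arrays. Larval Tim cells averaged 9.88 ± 2.61, the widest spread of the 8 groups, set by replicate 3. The eye (8.79 ± 1.07), larval Elav (8.21 ± 0.83) and larval Pdf cells (8.15 ± 0.72) were lowest and overlapped one another (SD, n = 3 each).

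The first conversions of sterol belong to nvd, sro and spok. The Rieske oxygenase nvd converts cholesterol to its dehydro form, the first step in the gland. It read 11.93, 10.59 and 10.86 in Tim without Pdf cells, 8.42, 7.71 and 2.40 in larval Tim cells, and 2.40 to 2.49 in larval Elav cells. The 3 Tim without Pdf arrays were all above the 3 larval Tim arrays, of which the last was under the limit, as the Elav arrays were. Compared with Elav cells, nvd was at least 69.8-fold higher in Tim without Pdf cells (limma adjusted p = 1.14e-06) and at least 2.26-fold higher in larval Tim cells (limma adjusted p = 0.00616), where 1 array was undetected like those of Elav cells. Here and below, "at least" means that the dimmer group had arrays under 5, each raised to 5 before the means were compared. A fitted log2 difference printed beside such a fold uses the undetected values as deposited and is no bound.

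The short-chain dehydrogenase sro and the cytochrome P450 spok act in the steps that follow, whose products are not fully known. The values of sro were 11.22, 11.22 and 10.70 in Tim without Pdf cells, 9.04, 9.77 and 2.94 in larval Tim cells, and 2.15 to 2.19 in larval Elav cells. For spok they were 13.06, 12.88 and 12.52 in Tim without Pdf cells, 11.49, 12.08 and 6.11 in larval Tim cells, and 2.45 to 2.60 in larval Elav cells. In both genes each Tim without Pdf array stood above each larval Tim array. Each larval Tim array of spok stood above each Elav array, whereas for sro larval Tim replicate 3 was under the limit, as the Elav arrays were, and no order is read among them. Relative to Elav cells, sro was at least 66.2-fold higher in Tim without Pdf cells (log2 difference 8.88 ± 1.03 SE, limma adjusted p = 2.63e-06) and at least 4.75-fold higher in larval Tim cells (limma adjusted p = 0.00118). The corresponding figures for spok were at least 226-fold (log2 difference 10.30 ± 0.91 SE, limma adjusted p = 1.26e-07) and at least 29.7-fold (limma adjusted p = 1.12e-05).

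The glutathione transferase GstE14, known as noppera-bo, is needed in the gland for sterol use. It read 12.96, 12.69 and 12.24 in Tim without Pdf cells, 12.47, 12.09 and 8.02 in larval Tim cells, and 2.32 to 2.35 in larval Elav cells. The Tim groups overlapped, and both lay above Elav cells on every array, by at least 198-fold for Tim without Pdf (limma adjusted p = 5.52e-07) and at least 58.1-fold for larval Tim cells (limma adjusted p = 9.18e-06). Of the 10 genes only GstE14 and Npc1a were above 5 on any adult array.

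The last steps are hydroxylations by 3 cytochrome P450 enzymes, phtm, dib and sad. For phtm, values were 11.83, 12.69 and 11.83 in Tim without Pdf cells, 12.89, 13.08 and 8.34 in larval Tim cells, and 2.11 to 2.12 in larval Elav cells. Larval Tim replicates 1 and 2 were thus higher for phtm than any Tim without Pdf array, which held for no other gene of the 10. The mitochondrial enzyme sad stood at 13.15, 13.43 and 13.35 in Tim without Pdf cells, 12.60, 13.22 and 8.85 in larval Tim cells, and 2.31 to 3.80 in larval Elav cells. The other mitochondrial enzyme, dib, stood at 8.51, 8.72 and 8.44 in Tim without Pdf cells, 7.53, 6.06 and 2.58 in larval Tim cells, and 2.19 to 2.22 in larval Elav cells. For sad the Tim groups overlapped, whereas for dib each Tim without Pdf array exceeded each larval Tim array, the last of which was undetected.

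Against Elav cells phtm was at least 139-fold higher in Tim without Pdf cells (limma adjusted p = 2.87e-08) and at least 86.6-fold higher in larval Tim cells (limma adjusted p = 1.35e-07). The folds of sad were at least 318-fold (log2 difference 10.49 ± 0.72 SE, limma adjusted p = 6.78e-09) and at least 94.2-fold (limma adjusted p = 1.15e-07). Those of dib were at least 11.8-fold (limma adjusted p = 3.93e-06) and at least 1.31-fold (limma adjusted p = 0.00467). A probe set's reading depends on its probes, so these folds are not ranked between genes.

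Control of the pathway is represented by tor and ouib. The receptor tyrosine kinase tor receives PTTH in gland cells, and ouib encodes a zinc finger transcription factor of the gland that activates spok. The level of tor was 9.39, 8.23 and 9.46 in Tim without Pdf cells, 8.54, 5.85 and 4.11 in larval Tim cells, and 2.38 to 2.44 in larval Elav cells, so the Tim groups overlapped, and larval Tim replicate 3 was undetected like the Elav arrays. The level of ouib was 11.33, 11.77 and 11.55 in Tim without Pdf cells, 10.41, 9.50 and 6.73 in larval Tim cells, and 2.32 to 2.36 in larval Elav cells, and these 3 groups did not overlap. In Tim without Pdf against Elav cells tor was at least 16.3-fold higher (limma adjusted p = 2.62e-06) and ouib at least 93.6-fold (limma adjusted p = 4.36e-09). In larval Tim against Elav cells the folds were at least 2.24-fold for tor (limma adjusted p = 0.00125) and at least 14.7-fold for ouib (limma adjusted p = 1.99e-07).

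Counted over the comparison of Tim without Pdf with larval Elav cells, 10 of the 10 genes rose, where 14.7% of all genes tested were called higher and 40.1% were called in either direction. With values under 5 raised to 5, the groups did not overlap for any of the 10, against 14.3% of all genes tested in the same direction. Counted from the same raised values, the median log2 difference of the 10 was at least 6.34, against -0.08 for all genes tested. For larval Tim against the same Elav arrays 9 of 10 rose, where 13.8% of all genes tested were called higher and 23.4% in either direction. On the raised values the groups did not overlap for 5 of the 10 (spok, sad, phtm, ouib and GstE14), against 14.1% of all genes tested in the same direction. On larval Tim replicate 3 dib, nvd, sro and tor were undetected. Here the median was 3.41, against 0 for all genes tested. Npc1a was the exception, with a log2 difference of 1.67 ± 0.86 SE (limma adjusted p = 0.180). Without larval Tim replicate 3 all 10 were called, Npc1a with a difference of 3.18 (limma adjusted p = 7.11e-04), and the differences of the other 9 were at least 1.80 for dib and at least 7.99 for phtm at the ends of the range, with values under 5 raised to 5. With values under 5 raised to 5 before the fit, tor was not called in larval Tim cells (difference 1.46, limma adjusted p = 0.0710). With larval Tim and Elav cells alone in the fit, 5 of the 10 were called. A median over genes that mostly passed the filter through the Tim groups is a description of them only.

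The Tim groups differ by Pdf-Gal80, and comparing them asks how the 10 genes stood when the PDF neurons were not labelled. In Tim without Pdf against larval Tim cells, 6 of 10 were called higher and 0 lower, where 3.87% of all genes tested were called higher, 12.4% lower and 16.2% in either direction. These were nvd (log2 difference 4.95 ± 0.93 SE, at least 16.9-fold, limma adjusted p = 0.00167), sro (3.80, at least 8.65-fold, limma adjusted p = 0.0170), dib (3.16, at least 5.12-fold, limma adjusted p = 0.00872), spok (2.93, 7.61-fold, limma adjusted p = 0.0352), tor (2.86, at least 5.92-fold, limma adjusted p = 0.0161) and ouib (2.67, 6.35-fold, limma adjusted p = 0.00444). The groups did not overlap on the raised values for 5 of them, all but tor, against 7.87% of all genes tested in the same direction. Not called were Npc1a (2.02, limma adjusted p = 0.120), GstE14 (1.77, limma adjusted p = 0.269), sad (1.75, limma adjusted p = 0.106) and phtm (0.68, limma adjusted p = 0.619). The median difference of the 10 on the raised values was at least 2.46, against -0.16 for all genes tested.

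**Figure D2:**
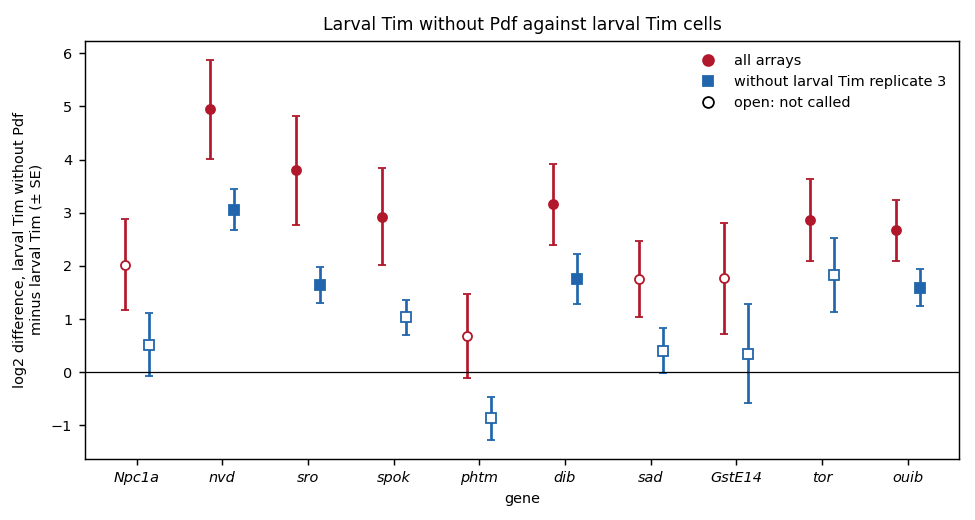
Log2 difference of each of the 10 genes, Tim without Pdf minus larval Tim cells, with all 3 larval Tim arrays and without larval Tim replicate 3, bars of 1 SE, and open points where the gene was not called. With all arrays the differences run between 0.68 for phtm and 4.95 for nvd, and without replicate 3 between -0.87 for phtm and 3.06 for nvd.

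Much of this difference rested on 1 array. Without larval Tim replicate 3, 4 of 10 were called, nvd (difference 3.06, limma adjusted p = 1.97e-04), dib (1.76, limma adjusted p = 0.0252), sro (1.65, limma adjusted p = 0.00605) and ouib (1.59, limma adjusted p = 0.00904). The other 6 were then tor (1.83, limma adjusted p = 0.105), spok (1.03, limma adjusted p = 0.0597), Npc1a (0.52, limma adjusted p = 0.652), sad (0.40, limma adjusted p = 0.620), GstE14 (0.35, limma adjusted p = 0.886) and phtm, whose sign turned (-0.87, limma adjusted p = 0.181). The call of spok was also lost without any 1 of the Tim without Pdf arrays (limma adjusted p between 0.0753 and 0.0872) and that of tor without Tim without Pdf replicate 1 (0.0529) or 3 (0.0681) or larval Tim replicate 2 (0.0612). Without larval Tim replicate 2 the call of sad was gained (difference 2.59, limma adjusted p = 0.0300), and without larval Tim replicate 1 that of Npc1a (2.80, limma adjusted p = 0.0416). With the 2 groups alone in the fit limma called 0 of 10, with 4 of 10 at an unadjusted p under 0.05, against 8 of 10 at that level in the fit of all groups. Lower calls outnumbered higher ones over all genes, with 23.9% of calls higher, and 49.0% after a further quantile normalisation, under which the same number of the 10, 6, was called.

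Larval Tim replicate 3 stood apart for these genes, and much less for genes in general. All 10 were lower on it than on both other larval Tim arrays, and 4 of them (dib, nvd, sro and tor) were undetected there, so that for these the gap is a lower bound. Over all 7670 genes tested, 3159 were lower on replicate 3 than on both others, against 2440 on replicate 1 and 2063 on replicate 2, by the deposited values. With values under 5 raised to 5, the gap to the lower of the other arrays was 5.39 for spok, 4.56 for phtm, 4.49 for Npc1a and 4.07 for GstE14, and at least 4.04 for sro, 1.06 for dib and 0.85 for tor. It was at least 3 for 6 of the 10, where it was so for 39 of 7670 genes tested (0.508%). By the same measure 16 genes were lower by at least 3 on replicate 1 and 3 on replicate 2, with 0 of the 10 among either. Replicates 1 and 2 differed from each other by -0.72 to 2.69 for the 10 genes, replicate 1 minus replicate 2, with tor at the upper end.

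**Figure D3:**
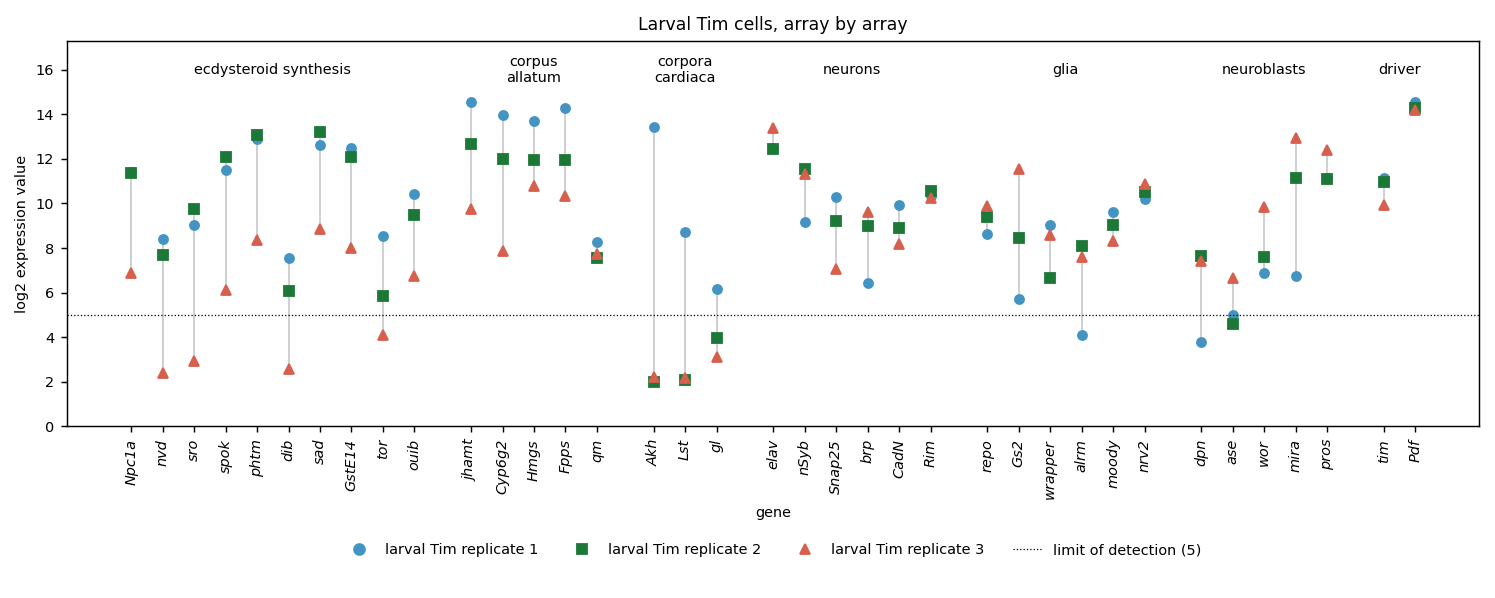
Log2 values (vertical axis) of the 10 genes, of marker genes of other cells and of tim and Pdf on the 3 larval Tim arrays, with a symbol per array and a dotted line at 5, the limit of detection. All 10 genes are lowest on larval Tim replicate 3, where elav is at 13.39 and mira, a neuroblast gene, at 12.93.

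Markers of other cells were also followed over the larval Tim arrays, and not all of them moved with the 10 genes. Summed levels, here and below, were made with values under 5 raised to 5, so undetected genes add 5 each. Of the corpus allatum markers all 5 were above 5 on each array, with summed log2 levels of 64.7, 56.1 and 46.4 on replicates 1, 2 and 3, and jhamt stood at 14.56, 12.65 and 9.77. The corpora cardiaca markers were above 5 in 3 of 3 on replicate 1 and in 0 of 3 on replicates 2 and 3, and Akh, the adipokinetic hormone gene, was at 13.42, 2.00 and 2.21. Neuroblast markers ran the other way, with 4, 4 and 5 of 5 above 5 and summed levels of 34.8, 42.5 and 49.2. Glial markers had 5, 6 and 6 of 6 above 5 with summed levels of 48.2, 52.1 and 56.8, and repo, the glial transcription factor, was at 8.61, 9.37 and 9.87, whereas moody, a glial barrier gene, was at 9.64, 9.05 and 8.32. Neuron markers were 6 of 6 on each array with sums of 58.7, 61.6 and 59.8, but their members moved in different directions. The gene elav was at 12.48, 12.45 and 13.39 and brp at 6.44, 8.97 and 9.60, while Snap25 was at 10.29, 9.22 and 7.06 and CadN at 9.91, 8.88 and 8.19. Hemocyte markers were above 5 in 0 to 1 of 5 and summed to 25.0 to 27.2. Cht2, a chitinase gene of the trachea, was at 7.59, 7.93 and 9.74, and apolpp, a fat body lipoprotein gene, at 10.89, 9.14 and 10.90. The other tracheal marker with a probe set, btl, and the fat body markers Fbp1, Fbp2 and Lsp2 were under 5 on all of these arrays. Cht2 also averaged 8.22 in larval Elav and 7.88 in larval Pdf cells. Here moody, brp, Snap25, CadN, Cht2 and apolpp were named after their values were seen. Their part in the lower values of the 10 genes on replicate 3 was not tested.

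The same markers also differed between the Tim groups. Neuroblast markers summed to 26.7 to 32.2 on the Tim without Pdf arrays (1 to 2 of 5 above 5), against 34.8 to 49.2 on the larval Tim arrays (4 to 5 of 5). Glial markers summed to 40.3 to 45.3 (2 to 5 of 6), against 48.2 to 56.8 (5 to 6 of 6), and repo stood at 3.91, 5.31 and 3.43, against 8.61, 9.37 and 9.87. Of the 6 glial markers 4 fell and 0 rose, and moody ran opposite to the list, at 10.55, 11.45 and 10.76, against 9.64, 9.05 and 8.32 (3.78-fold higher, limma adjusted p = 0.244). Corpus allatum markers summed to 57.5 to 60.3, against 46.4 to 64.7, with 5 of 5 above 5 in both. Neuron markers summed to 45.8 to 57.2 (3 to 6 of 6), against 58.7 to 61.6 (6 of 6). Of these 6 genes, 2 fell and 1, Snap25, rose 4.56-fold (limma adjusted p = 0.0178). Cht2 was at 3.98, 3.59 and 3.53, against 7.59, 7.93 and 9.74 (at least 10.7-fold lower, limma adjusted p = 0.00227), and of the 2 tracheal markers with a probe set 0 were above 5, against 1 on each larval Tim array (sums 12.6 to 14.7). Fat body markers summed to 21.3 to 24.1, against 24.1 to 25.9 (1 of 4 above 5 in both), and apolpp was at 6.25, 9.06 and 6.82, against 10.89, 9.14 and 10.90 (7.65-fold lower, limma adjusted p = 0.128). Hemocyte markers summed to 25.0 to 25.8, against 25.0 to 27.2. In larval Elav cells the corresponding sums were 55.5 to 58.4 for neuroblast (5 of 5), 35.3 to 36.8 for glial (1 to 2 of 6), 32.4 to 36.0 for corpus allatum (3 of 5) and 35.5 to 38.7 for neuron markers (1 to 3 of 6). The part of these cells in the differences of the 10 genes was not tested. The defining genes of the corpora cardiaca were under 5 on all Tim without Pdf and larval Elav arrays, where Akh lay between 2.00 and 2.08.

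Cells sorted from Pdf-Gal4 animals made up the Pdf groups. In larval Pdf against larval Elav cells limma called 0 of 10 genes in either direction, with 0 of 10 at an unadjusted p under 0.05, where 13.3% of all genes tested were called higher, 12.8% lower and 26.0% in either direction. Of the 10, 9 were below 5 on every array of both groups, so that no difference was detectable for them. Npc1a, detected in both, differed by -0.05 ± 0.86 SE (limma adjusted p = 0.999). Between Tim without Pdf and larval Pdf cells, 10 of 10 rose, where 7.56% of all genes tested were called higher and 22.7% in either direction. In that comparison, with values under 5 raised to 5, the median was at least 6.34, against -0.12 for all genes tested, and Npc1a was 13.4-fold higher (limma adjusted p = 0.00417). These comparisons share arrays with those against larval Elav cells and with each other.

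In adult samples the 8 gland enzymes and regulators were below 5 on all 11 arrays. The highest readings among them were 4.86 for tor, 3.78 for dib and 3.19 for phtm, all on adult Elav replicate 3. In adult large Pdf against adult Elav cells limma called 0 of 10, with 0 of 10 at an unadjusted p under 0.05, where 9.06% of all genes tested were called in either direction. In adult small Pdf against adult Elav cells it also called 0 of 10, with 0 of 10 at an unadjusted p under 0.05, where 8.75% of all genes tested were called. In the adult eye against adult Elav cells 1 of 10 was called higher, where 14.4% of all genes tested were called higher and 39.9% in either direction.

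That gene was GstE14. It stood at 8.29, 9.05 and 9.20 in the eye (8.85 ± 0.49, SD, n = 3), against 2.32 to 2.34 in adult Elav cells. Every eye array was above every Elav array, and the eye was at least 14.4-fold higher (limma adjusted p = 6.1e-05). In adult large Pdf cells GstE14 was at 2.37, 7.60 and 3.08, so replicate 2 alone was above 5 (difference from adult Elav cells 2.02, limma adjusted p = 0.279), and in small Pdf cells at 2.33 and 2.36. Npc1a was lower in the eye than in adult Elav cells on every array, by a difference of -1.34 that did not pass the test (limma adjusted p = 0.233). The eyes also held markers of other cells. Glial markers were above 5 in 4 to 5 of 6 on the eye arrays (sums 50.2 to 54.4), against 1 to 2 of 6 on the adult Elav arrays (sums 30.9 to 32.3), and 5 of 6 rose, among them moody (at least 78.9-fold higher, limma adjusted p = 7.27e-06). Hemocyte markers were above 5 in 3 to 4 of 5 (sums 32.8 to 37.6), against 1 of 5 (sums 29.9 to 31.1). Of these 5, 3 rose, with srp at least 41.1-fold higher (limma adjusted p = 1.31e-04), and Pxn fell (log2 difference -4.58, at least 23.3-fold lower, limma adjusted p = 0.00688). Fat body markers were above 5 in 1 to 2 of 4 (sums 29.0 to 34.7), against 1 of 4 (sums 21.1 to 22.9), and apolpp averaged 14.56, against 6.06 (at least 336-fold higher, limma adjusted p = 2.97e-05). The 3 genes listed for the corpora cardiaca, gl, Lst and Akh, were above 5 in 2 to 3 of 3 (sums 23.8 to 26.0), against 0 to 1 of 3 (sums up to 16.2). Of these, gl averaged 10.76, against 4.71 (at least 41.5-fold higher, limma adjusted p = 1.13e-04). Lst averaged 7.09, against 2.18 (at least 4.25-fold higher, limma adjusted p = 0.0115), and Akh was not called (limma adjusted p = 0.0967). The gene gl also averaged 6.03 in larval Pdf cells, where Akh averaged 2.00, so gl can be detected without Akh. These counts are therefore not read as corpora cardiaca cells in the eye samples, which was not tested. Of the 6 neuron markers 0 rose and 1 fell. The part of such other cells in the GstE14 signal was not tested.

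Other genes of the pathway were followed in 3 lists. Of the synthesis, uptake, transport and redox partners, 12 of 14 listed genes had a probe set and 10 were tested. In Tim without Pdf against larval Elav cells 7 of these 10 rose and 0 fell, where 14.7% of all genes tested rose and 25.4% fell. Their median difference on the raised values was 2.22, against -0.08 for all genes tested. The ecdysteroid importer Oatp74D was at 12.77, 14.07 and 13.06, against 6.11, 6.39 and 10.32 (51.7-fold higher, limma adjusted p = 3.68e-04). Atet, an ABC transporter that loads ecdysone into secretory vesicles, was at 9.96, 9.86 and 10.62, against 4.66, 5.77 and 6.63 (at least 20.4-fold higher with 1 Elav array under 5, limma adjusted p = 6.3e-05). The sterol carrier homologue Start1 was at 12.29, 12.61 and 12.46, against 7.59, 8.10 and 8.48 (21.1-fold higher, limma adjusted p = 3.54e-05). For all 3 genes the Tim without Pdf arrays lay above the Elav arrays. The enzyme shd, which makes the active hormone in tissues outside the gland, was under 5 on all 23 arrays and was not tested. Cyp6t3 did not pass the filter either, though it was at 6.47, 2.07 and 2.09 on the larval Tim arrays.

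Of the same partners 5 of 10 rose in larval Tim against Elav cells and 0 fell, where 13.8% of all genes tested rose and 9.63% fell, with a count of 3 without larval Tim replicate 1 and 7 without larval Tim replicate 3. Npc2a, a secreted sterol-binding protein, was at 11.37, 11.93 and 10.83, against 4.19, 5.68 and 4.87 in Elav cells (at least 71.0-fold higher, limma adjusted p = 3.4e-07). It did not follow the 10 genes, since it fell to 6.26, 7.53 and 7.93 in Tim without Pdf cells, 17.5-fold lower than in larval Tim cells (limma adjusted p = 2.23e-04), and was at 10.83, 8.90 and 8.61 in larval Pdf cells. Start1 and Atet did follow them over the larval Tim arrays, with Start1 at 11.29, 11.61 and 8.05 and Atet at 8.76, 8.51 and 5.50. So did Fdx2, named here after its values were seen, at 10.55, 10.34 and 6.21, though it was not called between the Tim groups (limma adjusted p = 0.671). Start1 and Atet were 4.40-fold and 5.88-fold higher in Tim without Pdf than in larval Tim cells (limma adjusted p = 0.0318 and 0.0182). Neither was called without larval Tim replicate 3 (0.176 and 0.115). They were the 2 of 10 partners that rose in that comparison, and 2 fell, beside 3.87% and 12.4% of all genes tested. With Npc2a fell Npc2b, named here after its values were seen (at least 3.57-fold lower, limma adjusted p = 0.00720).

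PTTH acts through tor on a Ras and MAP kinase cascade, and other receptor kinases act on the gland beside it. Of this list 15 of 18 genes had a probe set and 13 were tested, and Ptth itself, which is made in brain neurons, was under 5 on all 23 arrays. Against larval Elav cells, 5 of 13 rose and 2 fell in Tim without Pdf cells, beside 14.7% and 25.4% of all genes tested, with a median of 0.98 when values under 5 were raised to 5. The receptor kinase Pvr was at 8.04, 9.73 and 8.62, against 3.10 to 3.97 (at least 13.9-fold higher, limma adjusted p = 3.44e-05). The phosphatase csw, which transmits receptor kinase signals, was at 11.42, 11.17 and 12.21, against 9.19, 7.58 and 8.90 (8.25-fold higher, limma adjusted p = 5.91e-05), and Alk, another receptor kinase, at 7.51, 9.58 and 4.38, against 2.79 to 3.99 (at least 4.45-fold higher, limma adjusted p = 0.00189). The kinase Dsor1 and the scaffold ksr made up the 2 that fell, named here after their values were seen, and 0 fell without Tim without Pdf replicate 1 or without larval Elav replicate 3. Alk was also above 5 on all larval Tim arrays (8.25, 9.44 and 8.52) and on all larval Pdf arrays (8.31, 8.0 and 9.95), where 9 of the 10 genes were below it. Pvr averaged 6.34 in larval Pdf cells and was called higher there than in Elav cells as well (at least 2.54-fold, limma adjusted p = 0.0112). In adult Elav cells Alk averaged 11.15, csw 11.77 and Pvr 7.99, against 7.15, 11.6 and 8.80 in Tim without Pdf cells. High levels of these genes were thus not particular to the Tim groups.

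Transcription factors known from the gland made up the last list, with 12 of 15 genes on the arrays and all 12 tested. Against larval Elav cells, 6 of 12 rose and 0 fell in Tim without Pdf cells, beside the same 14.7% and 25.4% of all genes tested, with a median of 1.96 when values under 5 were raised to 5. The POU factor vvl, which the Halloween genes need, stood at 12.07, 11.87 and 11.88, against 9.02, 6.98 and 7.20 (18.5-fold higher, limma adjusted p = 3.96e-05). The nuclear receptor gene Hr3 stood at 6.36, 7.46 and 8.75, against 2.72 to 3.78 (at least 5.76-fold higher, limma adjusted p = 1.4e-05), and cnc at 11.42, 11.19 and 10.96, against 8.86, 7.53 and 8.08 (8.20-fold higher, limma adjusted p = 7.84e-06). For these 3 genes the groups did not overlap. In larval Pdf cells, where 9 of the 10 genes were below 5, Hr3 averaged 6.91 and cnc 9.71. Both were called higher there than in Elav cells (at least 3.75-fold and 2.94-fold, limma adjusted p = 1.11e-04 and 0.00620). Against larval Pdf cells, Hr3 was not called in Tim without Pdf cells (1.53-fold, limma adjusted p = 0.509), and cnc was 2.78-fold higher (limma adjusted p = 0.0105). Adult Elav cells averaged 8.87 for Hr3, 8.61 for cnc and 7.27 for vvl, against 7.5, 11.19 and 11.94 in Tim without Pdf cells. Between Tim without Pdf and larval Tim cells 5 of 12 rose, beside 3.87% of all genes tested, EcR, the ecdysone receptor gene, by 6.82-fold (limma adjusted p = 9.95e-04), mld, a zinc finger factor needed for nvd and spok, by 5.38-fold (limma adjusted p = 0.00518) and vvl by 5.23-fold (limma adjusted p = 0.0150), and the count was 2 without larval Tim replicate 3 and 3 without larval Tim replicate 2, vvl not among them in either case (limma adjusted p = 0.0917 and 0.0573).

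**Figure D4:**
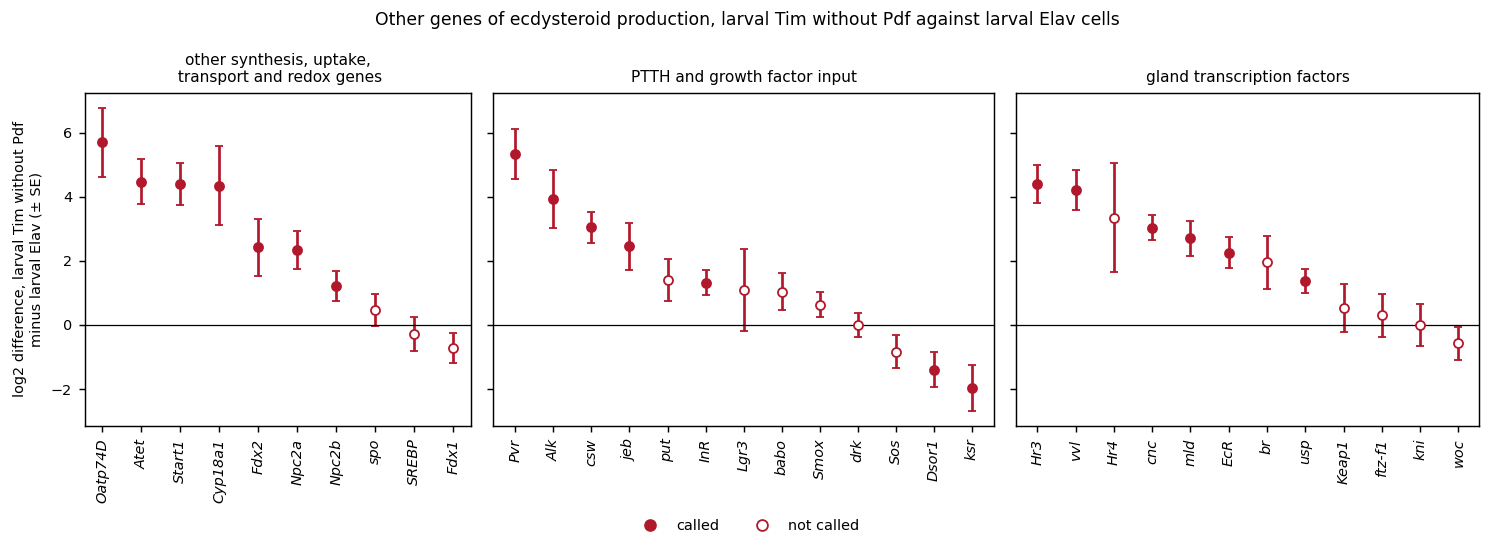
Log2 difference, Tim without Pdf minus larval Elav cells (vertical axis), of each tested gene of the 3 other pathway lists (1 panel each), with bars of 1 SE and open points where the gene was not called. Of the partners 7 of 10 are called higher, of the PTTH and growth factor list 5 of 13 are called higher and 2 lower, and of the transcription factors 6 of 12 are called higher.

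The counts for the other comparisons are given by list, in the order partners, PTTH and growth factor input, and transcription factors. Larval Tim against Elav cells had 5 of 10, 3 of 13 and 3 of 12 higher and 0 lower in each, beside 13.8% higher and 9.63% lower over all genes tested, and the transcription factor count was 1 without larval Elav replicate 2. Larval Pdf against Elav cells had 1, 3 and 2 higher and 0 lower in each, beside 13.3% higher and 12.8% lower over all genes tested. Tim without Pdf against larval Tim cells had 2, 3 and 5 higher and 2, 1 and 0 lower, beside 3.87% higher and 12.4% lower. Of the PTTH list, Pvr (higher) and Dsor1 (lower) were not called there without larval Tim replicate 3 (limma adjusted p = 0.249 and 0.0607). Tim without Pdf against larval Pdf cells had 5, 4 and 5 higher and 1, 1 and 0 lower, beside 7.56% higher and 15.1% lower over all genes tested, with vvl 43.4-fold higher (limma adjusted p = 8.93e-06), Oatp74D 53.5-fold higher (limma adjusted p = 8.46e-04) and Start1 26.8-fold higher (limma adjusted p = 5.22e-05). The 5 partners became 3 without Tim without Pdf replicate 1, and the 4 genes of the PTTH list became 1 without Tim without Pdf replicate 3 or larval Pdf replicate 1 and 2 without Tim without Pdf replicate 2 or larval Pdf replicate 3. In the eye against adult Elav cells there were 2, 2 and 1 higher and 1, 5 and 1 lower, beside 14.4% higher and 25.5% lower over all genes tested, and the sterol-binding genes Npc2b (at least 19.9-fold, limma adjusted p = 6.54e-08) and Npc2a (7.14-fold, limma adjusted p = 8.81e-04) were the partners that rose. The transcription factor counts in the eye were 0 and 0 without adult eye replicate 2. In adult large Pdf against adult Elav cells there were 1, 1 and 0 higher and 1, 0 and 1 lower, beside 3.40% higher and 5.66% lower over all genes tested. In small Pdf cells there were 0, 1 and 0 higher and 1, 0 and 1 lower, beside 3.57% higher and 5.18% lower. Without adult Elav replicate 2 all of these counts in large and small Pdf cells were 0.

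The 10 genes also resembled each other across arrays, though by how much differed. A mean profile was made from the 6 enzymes nvd, sro, spok, phtm, dib and sad over the 23 arrays, with values under 5 raised to 5. Pearson's r with it, given as a description because arrays of a group share their cells, was 0.997 for ouib, 0.930 for tor, 0.897 for GstE14 and 0.662 for Npc1a, none of which entered the profile. The enzymes, which did enter it, had r between 0.955 for dib and 0.998 for spok.

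Among 5502 genes with a group mean of at least 8, 20 genes outside the 10 reached an r of 0.9 or more. The closest 10 were CG10337 (0.990), jhamt (0.982), Gagr (0.972), CG4408 (0.971), Naglu (0.969), Start1 (0.964), Pkg21D (0.964), Cyp6g2 (0.947), tsl (0.942) and loh (0.940). Naglu encodes a lysosomal glycosidase and Pkg21D a cyclic GMP-dependent kinase. Tsl, a secreted protein, is known in the early embryo from the activation of the receptor tor. The values of jhamt and Cyp6g2, both corpus allatum markers, were 13.71, 14.18 and 14.22 and 10.55, 11.30 and 10.37 in Tim without Pdf cells, against 14.56, 12.65 and 9.77 and 13.97, 11.98 and 7.88 in larval Tim cells. Both were at or below 4.51 on all arrays outside the Tim groups.

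**Figure D5:**
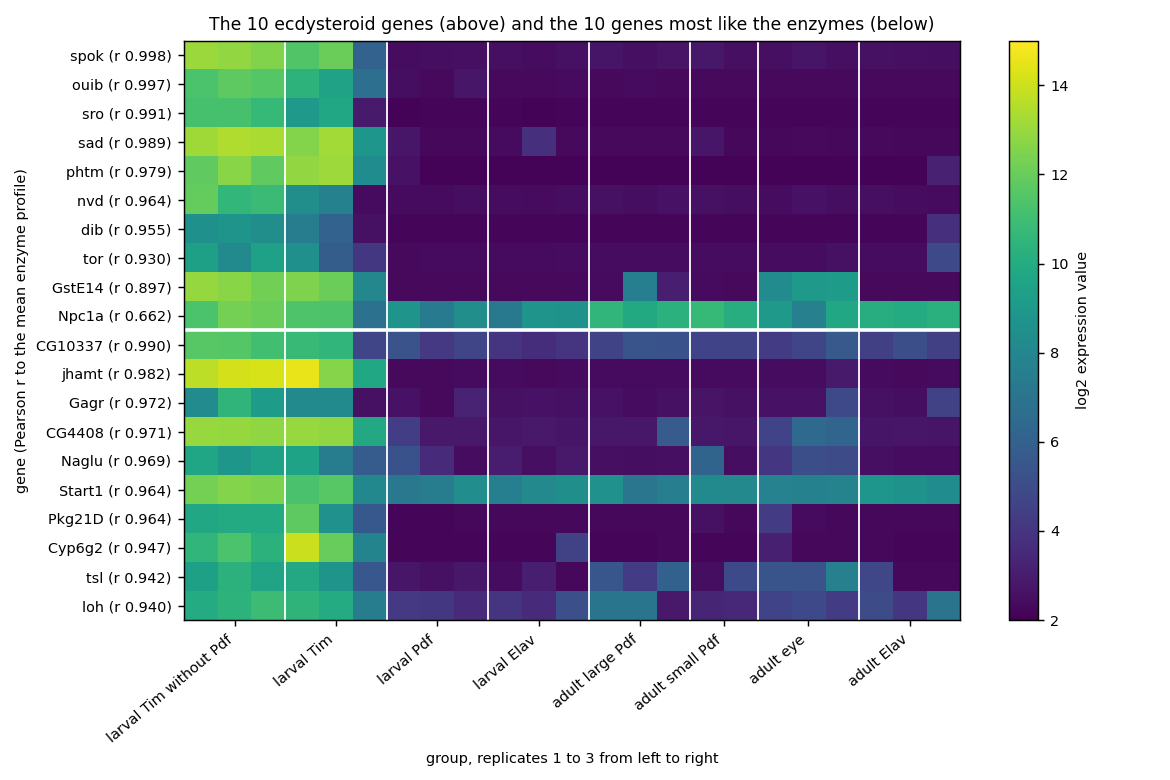
Log2 values (colour scale) of the 10 ecdysteroid synthesis genes (above) and of the 10 other genes most like the mean profile of 6 enzymes (below) on the 23 arrays (columns, by group), with Pearson's r beside each name. The lower 10 genes, with r between 0.940 for loh and 0.990 for CG10337, are highest on Tim without Pdf or larval Tim arrays, and Start1 is detected on all 23 arrays.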

How the data were processed

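The authors deposited log2 expression values made with GCRMA, per the submitters' processing notes. Its version, its settings and a genome build were not stated there, and no coordinates or sequences are printed. GCRMA gathers undetected probe sets near the bottom of the log2 scale, so folds against such values depend on its background model, and amplification of small RNA amounts can shift levels between genes. Values ran from 1.68 to 16.2. Of 18952 probe sets, 13647 had 1 gene in the platform annotation, and each of the 11982 genes was represented by its brightest probe set. The 7670 genes that exceeded 5 on 2 or more arrays entered 1 limma model of 8 group means (limma 3.58.1, R 4.3.3, eBayes, two-sided). A gene was called at a Benjamini-Hochberg adjusted p under 0.05 and a fold of at least 2. The script was tested on simulated data. The 10 genes, the lists and the tests were chosen with earlier results of these data known. Named beside the 10 genes are up to 3 called genes of each list with the largest difference, the defining genes of other cells and drivers, and the 10 genes most like the enzymes' profile. Alternatives were the filter, a floor at 5, quantile normalisation, array weights, a replicate block, another probe set rule, the compared groups alone and leaving out each array. No batch or scan date was given in the labels.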

Additional observations from a re-analysis of the deposited data

How the results depend on the processing

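The count of the 10 genes called moved by over 1.5 times in larval Tim against larval Elav cells (9) and in Tim without Pdf against larval Tim cells (6) with the compared groups alone in the fit, to 5 and 0. Leaving out 1 array at a time gave 9 to 10 and 4 to 7, and for the others 10 (Tim without Pdf against Elav or Pdf cells), 0 (larval, large and small Pdf cells) and 1 (eye) throughout. With all genes, array weights gave 3402 calls in larval Tim against Elav cells (1795 in the model used) and 2403 in Tim without Pdf against larval Tim cells (1245). The compared groups alone gave 569 in Tim without Pdf against larval Tim cells, 1173 in larval Pdf against Elav cells (1996), 868 in Tim without Pdf against larval Pdf cells (1740), 426 in large Pdf (695) and 352 in small Pdf against adult Elav cells (671). Without 1 array the counts were 2326 to 3063 for Tim without Pdf and 1191 to 1696 for larval Tim against Elav cells, 1270 to 1961 for larval Pdf against Elav cells, 656 to 1247 for Tim without Pdf against larval Tim and 1140 to 1531 against larval Pdf cells, and 456 to 658 for large Pdf, 395 to 573 for small Pdf and 2199 to 2895 for the eye against adult Elav cells. Signs turned for phtm in Tim without Pdf against larval Tim cells with array weights (-0.52) and without larval Tim replicate 3 (-0.87, range without 1 array -0.87 to 1.5), and for Npc1a where its difference was near 0. For larval Pdf against Elav cells it was 0.047 after quantile normalisation, 0.35 without larval Pdf replicate 2 and 0.21 and 0.16 without larval Elav replicates 2 and 3, in a range of -0.53 to 0.35. For large and small Pdf against adult Elav cells it was -0.0012 and -0.033 without replicate 1 of each, in ranges that reached 0.32 and 0.57. Fewer samples are left in the fits without an array or with the compared groups alone. The model used also shares 1 variance per gene among all 8 groups, undetected ones included. For nvd the SD was 3.29 in larval Tim cells and 0.05 in larval Elav cells (n = 3 each). The p-values of the model used can therefore understate the spread among the larval Tim arrays. The cause of the shifts was not tested for any setting.

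Quantile normalisation moved the median of all genes in Tim without Pdf against larval Tim cells to -0.01, against -0.33 without it. The share of higher calls moved by over 10 points with it in Tim without Pdf against larval Elav (47.0%, against 36.6%) and larval Pdf cells (49.6%, against 33.3%), in large Pdf (49.3%, against 37.6%) and in the eye against adult Elav cells (46.2%, against 36.1%). Same-numbered arrays of the groups compared were not paired by any label, and their deviations correlated between -0.32 and 0.22. In Tim without Pdf against larval Tim cells 4 of 6 arrays correlated best with their own number. With the replicate number as a block, the count of the 10 genes called was the same in all 8 comparisons (10, 9, 0, 6, 10, 0, 0 and 1), and the counts of all genes called were 614 to 2991. Signals below 5 are near the background of the arrays, so for 8 of the 10 genes the data limit levels outside the Tim groups from above only.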
